A study of Mus musculus with 18 samples.

Results

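The 18 mouse livers of a quercetin feeding study were divided by how strongly they expressed heat shock genes, and every other gene was then compared across that division. Each array was given a heat shock score, the mean log2 level of Hspa8, Hsph1, Dnajb1 and Hspb1. Within each diet the 3 arrays with the highest scores were called high and the 3 with the lowest were called low. This gave 9 high and 9 low arrays, which together are all 18 arrays of the series. The members of both groups were thus chosen by the measured levels of these 4 genes and not from any label, so no treatment separates the groups, and the score and its 4 genes are described here without a test.

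The mice were male C57BL/6J animals (spelled C56BL/6J in one label field) that ate an AIN93G diet for 20 weeks from 5 weeks of age. The diet held no quercetin, a plant flavonol, in the control group, and 0.05% or 1% quercetin in the others. Each diet had 12 mice, housed 3 to a cage, and 6 mice per diet were put on Affymetrix mouse arrays, each array carrying the liver RNA of a single mouse. All mice were kept on a reversed light cycle, with darkness during the daytime hours of the clock and light during the night. Cage and the clock hour of killing are not in the labels, so neither could be compared with the score. High and low arrays hold the same numbers of each diet and share strain, sex and length of feeding.

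Heat shock genes are switched on when proteins misfold, for example with heat or oxidants, and the transcription factor HSF1 drives them. HSF1 is held inactive by chaperones in resting cells and, once released, forms trimers that bind heat shock elements, inverted repeats of GAA, in the promoters of its targets. The targets include the HSP70 chaperones, which bind unfolded segments of other proteins, the HSP40 co-chaperones that feed them, HSP110 and BAG proteins that exchange their nucleotide, HSP90 with its partners, and small heat shock proteins that hold aggregating proteins in solution. In the liver the same genes also follow body temperature over the day.

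The promoters of 4 of these genes are shown, chosen among those that hold a match to a short form of the element that HSF1 binds. Each is the 250 bases before the RefSeq transcript start, on GRCm38.p6 and read along the gene's strand, with every match to GAANNTTC or TTCNNGAA in capitals. Both of these 8-letter motifs read the same on either strand.
Hspa1b, chr17:34959239-34959488, minus strand: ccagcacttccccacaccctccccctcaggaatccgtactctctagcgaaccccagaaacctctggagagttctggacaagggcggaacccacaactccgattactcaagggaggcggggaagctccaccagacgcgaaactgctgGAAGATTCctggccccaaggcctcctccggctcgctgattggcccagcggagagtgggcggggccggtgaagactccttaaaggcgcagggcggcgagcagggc
Hsph1, chr5:149636337-149636586, minus strand: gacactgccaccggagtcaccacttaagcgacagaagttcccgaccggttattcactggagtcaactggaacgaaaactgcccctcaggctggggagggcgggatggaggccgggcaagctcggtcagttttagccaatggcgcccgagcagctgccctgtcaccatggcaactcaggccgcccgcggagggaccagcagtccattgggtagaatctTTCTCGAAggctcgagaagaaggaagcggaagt
Hspb1, chr5:135887669-135887918, plus strand: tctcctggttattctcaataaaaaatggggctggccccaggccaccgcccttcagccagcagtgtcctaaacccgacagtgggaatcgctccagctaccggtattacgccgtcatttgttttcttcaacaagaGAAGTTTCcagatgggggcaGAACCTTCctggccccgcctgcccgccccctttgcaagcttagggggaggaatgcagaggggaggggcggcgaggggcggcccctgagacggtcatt
Dnaja1, chr4:40722218-40722467, plus strand: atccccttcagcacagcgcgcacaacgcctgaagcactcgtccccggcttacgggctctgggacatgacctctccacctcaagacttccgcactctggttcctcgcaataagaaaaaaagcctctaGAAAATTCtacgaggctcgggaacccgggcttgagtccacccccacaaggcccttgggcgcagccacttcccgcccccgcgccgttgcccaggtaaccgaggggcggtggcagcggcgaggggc
The match in Hspa1b began 104 bases before the start, that in Hsph1 33 bases, those in Hspb1 117 and 97 bases, and that in Dnaja1 124 bases. Over the whole RefSeq table of promoters, 4218 of 32851 windows of this length held a match (12.8%).

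Counted by gene, 12 of the 47 tested chaperone genes (TRiC and prefoldin aside) with a window held a match (25.5%), beside 1304 of 10406 tested genes (12.5%). Of the genes of the score, Hsph1 and Hspb1 held one, the Dnajb1 window held none, and Hspa8 had no window. Among the chaperones outside the score that differed most, Hspa1b, Hspa1a, Dnaja1, Dnaja4 and Dnajb4 held one. Bag3 and Chordc1 held none. The longer form with another unit added, GAANNTTCNNGAA or TTCNNGAANNTTC, was in the windows of 3 of the 47 chaperone genes, namely Dnajb6, Hspd1 and Hspe1, and in 0.514% of all genes in the table. Those 3 genes were not among the chaperones that differed most between high and low arrays, at log2 differences of 0.02, 0.12 (Hspd1, at -0.042 as deposited) and 0.07. A match is a run of letters and not evidence that a factor was bound there.

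The score was 11.00 ± 0.33 (SD, n = 9) on the high arrays and 10.16 ± 0.41 (n = 9) on the low arrays, in log2 of the deposited intensity plus 16 after the arrays were shifted to a common median. The high arrays ran from 10.41 through a median of 11.13 to 11.40, and the low arrays from 9.58 through 10.24 to 10.68. Because the division was made within diets, the ranges overlapped across diets: replicate 2 on 0.05% quercetin was high at 10.41, below control replicate 6, which was low at 10.54. The distance across the division was wide in only 1 diet. It was 0.65 on 0.05% quercetin, from replicate 2 at 10.41 to replicate 6 at 9.76. It was 0.11 on the control diet, from replicate 5 at 10.66 to replicate 6 at 10.54. On 1% quercetin it was 0.01, from replicate 2 at 10.70 to replicate 5 at 10.68, and these 2 arrays exchanged places after quantile normalization.

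**Figure D1:**
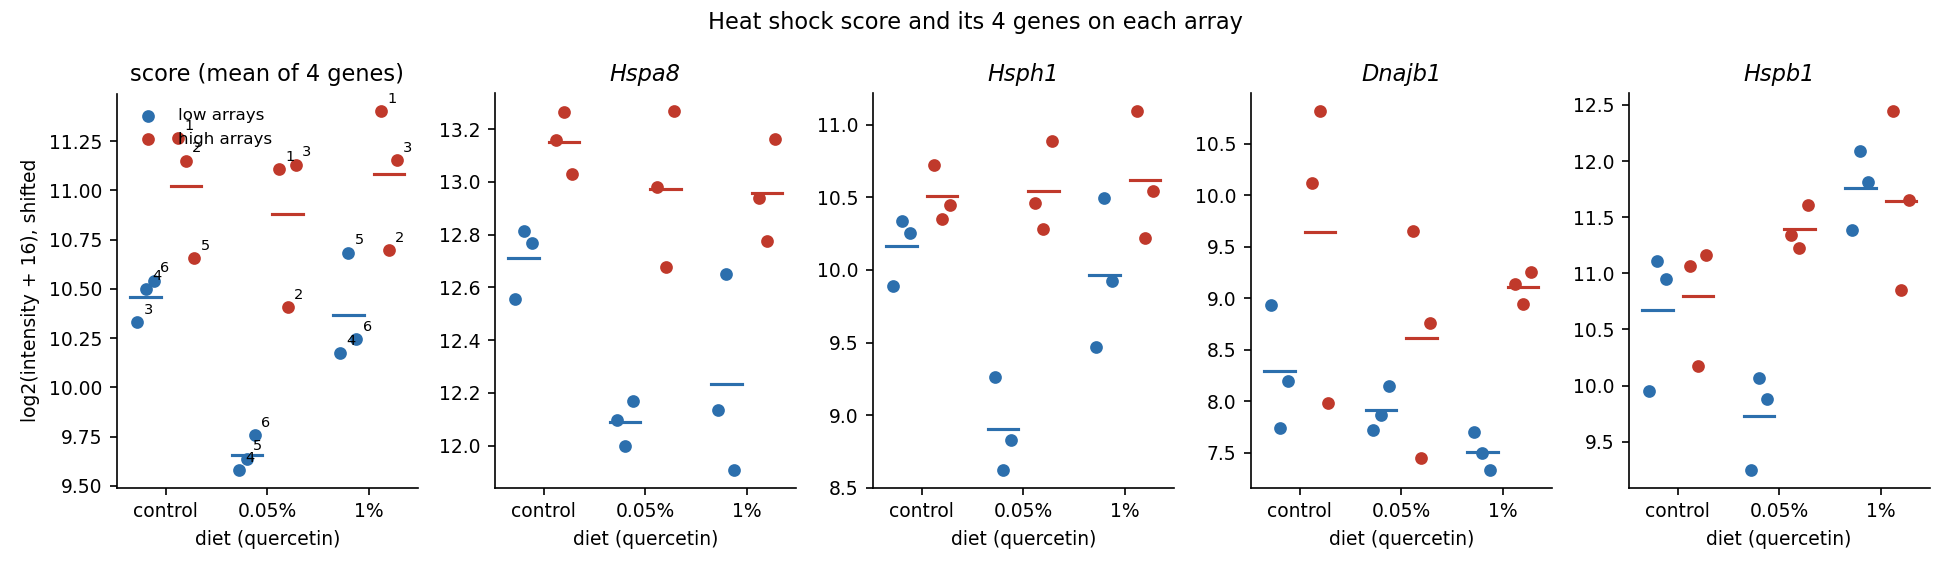
Heat shock score and the log2 level of each of its 4 genes on every array, by diet, with high arrays in red, low arrays in blue, a bar at the mean of each 3 arrays, and replicate numbers beside the scores. The low arrays on 0.05% quercetin lie between 9.58 and 9.76, well below the other arrays, and Hspb1 on 1% quercetin is not higher on the high arrays.

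The 4 genes of the score did not contribute alike. Hspa8, the constitutive HSP70 of the cytosol, was 13.03 ± 0.21 on high and 12.34 ± 0.35 on low arrays, and its high and low arrays were apart in each of the 3 diets. Hsph1, the HSP110 that exchanges nucleotide for HSP70, was 10.56 ± 0.29 against 9.68 ± 0.67, with groups apart in 2 diets. Dnajb1, an inducible HSP40, was 9.12 ± 1.03 against 7.90 ± 0.47, and its groups were apart on 1% quercetin only. Hspb1, a small heat shock protein, was 11.28 ± 0.62 against 10.72 ± 0.98. For Hspb1 the difference stood at 1.66 on 0.05% quercetin, 0.13 on the control diet and -0.12 on 1% quercetin, so the score there rested on the other genes. A dimmer probe set of Hspa8 gave a difference of -0.34 where the one used gave 0.68. The remaining probe sets of Hspa8, Hsph1, Dnajb1 and Hspb1 lay between 0.58 and 1.11.

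Features of the arrays moved with the division. The median deposited log2 level of the tested genes was 6.91 ± 0.13 on high and 7.07 ± 0.15 on low arrays, so high arrays were dimmer before the shift. The 3′ minus 5′ signal of the Gapdh and Actb control probe sets, a measure of RNA length, was 0.53 ± 0.05 on high and 0.49 ± 0.10 on low arrays, with overlapping ranges. Replicate numbers 1 to 3 belonged to 8 of the 9 high arrays and numbers 4 to 6 to 8 of the 9 low arrays. The labels give these numbers no meaning, and whether they stand for an order of killing, extraction or hybridisation was not tested.

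No gene outside the score passed an adjusted p under 0.05 between high and low arrays, 0 of 12881 tested (0%), by limma with diet as a block and Benjamini-Hochberg adjustment over all tested genes. At an unadjusted p under 0.05 there were 1295 genes (10.1%), of which 855 were higher (6.64%) and 440 lower (3.42%) on the high arrays. The smallest adjusted p was 0.0999, shared by Uspl1 and P4ha1. The balance of directions followed the scaling: 855 against 440 after the median shift became 511 against 673 after quantile normalization and 70 against 2138 on values as deposited. The median difference over all tested genes was 0.02, -0.01 and -0.14 in those 3 scalings, so small differences are to be read against these. After the median shift 7263 of 12881 genes (56.4%) were above 0, and counts above 0 are to be read against this share. It was not counted for the other scalings. The p-values of the comparison ask whether a gene's level goes with the division of these 18 livers. The differences given next did not pass the adjusted threshold, except where a count of genes that passed is stated. In whole liver, fewer cells of a type and less RNA per cell cannot be told apart.

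The largest difference among the named genes was in inducible HSP70. Hspa1b, whose product is made in quantity only under stress, ran on the high arrays from 9.43 through a median of 12.34 to 12.76 and on the low arrays from 7.77 through 9.67 to 10.98. Most high arrays stood above all low ones, but control replicate 5 at 10.54 and 0.05% replicate 2 at 9.43 lay inside the low range, and the groups were apart on 1% quercetin only. The difference was 2.33 ± 0.43 (SE), 5.01-fold on this scale, with an adjusted p of 0.118. Within diets it was 1.54 on control, 2.45 on 0.05% and 2.98 on 1% quercetin. The other Hspa1b probe sets gave 2.57 and 2.63. Hspa1a, a near-identical neighbour whose signal the probes may share, differed by 1.78 ± 0.40 (adjusted p 0.156).

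Bag3, which exchanges nucleotide on HSP70 and directs its clients to autophagy, ran from 8.80 through 9.40 to 10.01 on high and from 8.03 through 8.47 to 9.12 on low arrays. High and low were apart on the control and 0.05% diets, and on 1% quercetin the low replicate 5 (9.12) exceeded the high replicates 2 (8.91) and 3 (9.04). The difference was 0.95 ± 0.19 (adjusted p 0.125), with 1.03, 1.16 and 0.66 in the control, 0.05% and 1% diets. With the replicate number as a further block it was 0.37. That fit rests on the 2 replicate numbers that hold both high and low arrays, a limit on every value given with a replicate block.

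**Figure D2:**
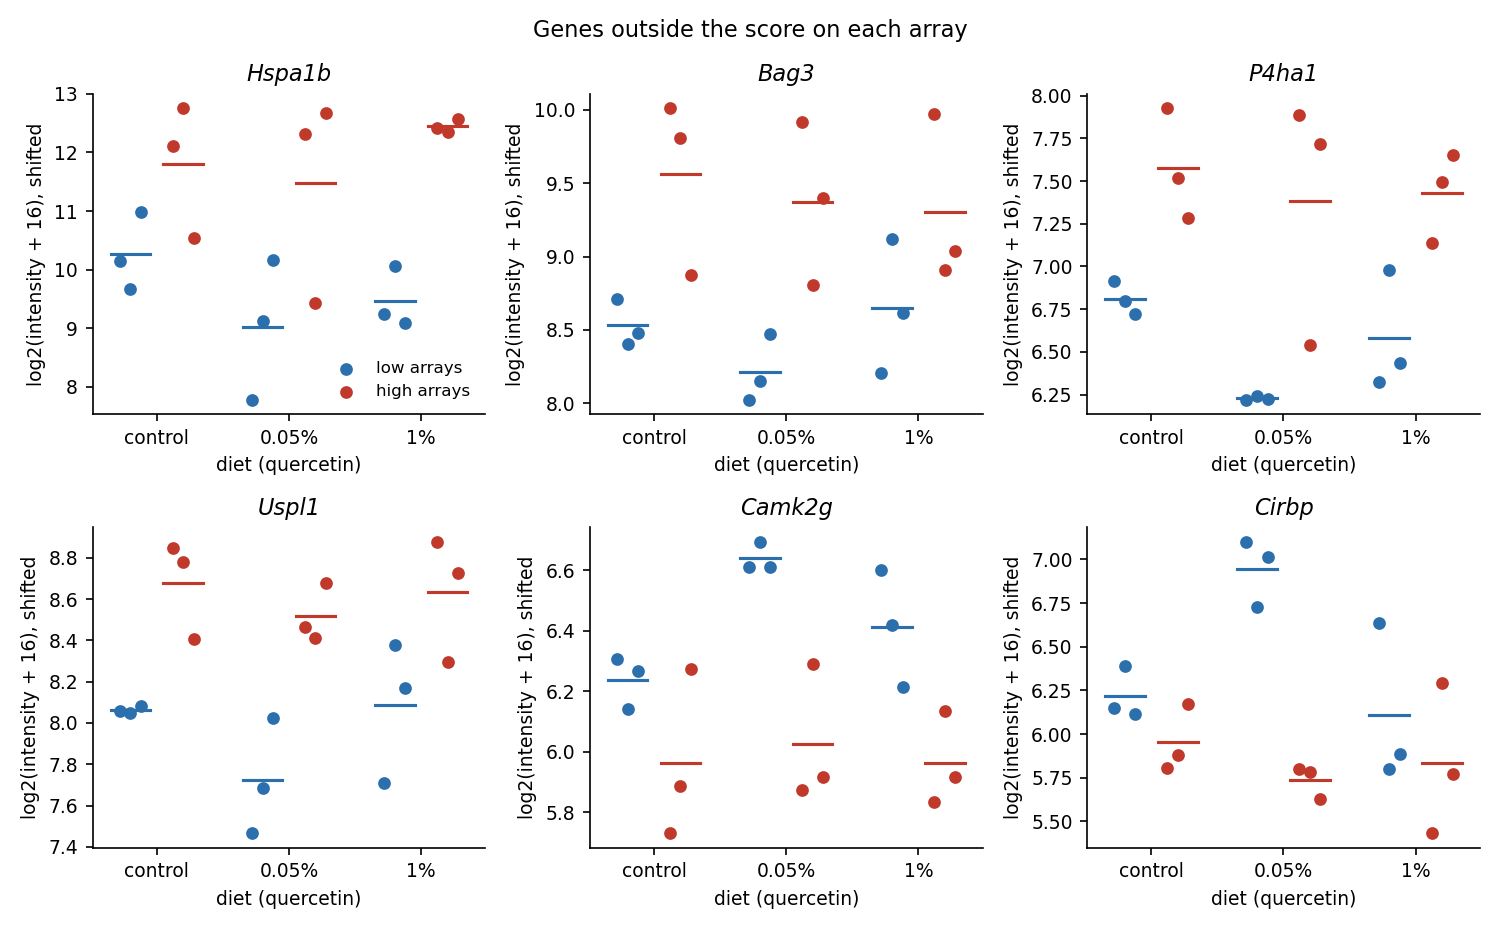
Log2 levels of 6 genes outside the score on every array, by diet, with high arrays in red, low arrays in blue and a bar at the mean of each 3 arrays. P4ha1 is apart in each diet, Hspa1b, Bag3 and Uspl1 overlap in at least 1 diet, and Camk2g and Cirbp have lower means on the high arrays of each diet.

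HSP40 co-chaperones, which bring clients to HSP70 and stimulate its ATPase, were above 0 for 8 of 8 tested genes after the median shift, for 7 after quantile normalization and for 4 as deposited. Dnaja1 ran from 11.67 through 12.24 to 12.67 on high and from 11.16 through 11.47 to 12.04 on low arrays, apart on 0.05% and 1% quercetin. Its difference was 0.59 ± 0.13 (adjusted p 0.156), or 0.33 with a replicate block. Dnajb4 differed by 0.71 ± 0.17 (adjusted p 0.168), at 0.76, 0.64 and 0.72 in the 3 diets, although a dimmer probe set gave -0.11, the mean of its probe sets 0.40 and the fit with a replicate block 0.16. Dnaja4 differed by 0.58 ± 0.19 (adjusted p 0.304), and a further probe set gave 0.24. The remaining HSP40 genes, Dnajb2, Dnajb5, Dnajb6, Dnaja2 and Dnajc7, lay between 0.02 and 0.19.

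HSP90 and its partners mature kinases and steroid receptors. The median difference over the list was 0.31 on 0.05% quercetin, 0.06 on 1% and -0.04 on control. Chordc1, an HSP90 co-chaperone, differed by 0.48 ± 0.12 (adjusted p 0.177), with 0.94 on 0.05% quercetin, 0.40 on 1% and 0.11 on control. Stip1, which bridges HSP70 and HSP90, differed by 0.24 ± 0.11 over all diets, with 0.66 on 0.05% quercetin. Hsp90aa1, the inducible HSP90, differed by 0.24 ± 0.12, with 0.68 on 0.05% quercetin. Its further probe sets gave 0.41 and 0.42. Hsp90aa1 ran from 12.49 to 12.98 on high and from 12.07 to 12.95 on low arrays, so the groups overlapped over most of their range. The change of the difference with diet had unadjusted limma p of 0.0107, 0.0086 and 0.00836 for Chordc1, Stip1 and Hsp90aa1, and adjusted p of 0.31, 0.30 and 0.30, so none passed. Fkbp4, an immunophilin partner of HSP90, differed by 0.25 ± 0.11, and by -0.072 with a replicate block. Of the 12 tested genes of this list 8 were above 0 and 4 below, with a median of 0.11, or -0.05 as deposited.

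The cytosolic chaperone lists, their partners and the heat shock factors held 53 genes, of which 44 were tested. None was called, beside 0% of all genes. At an unadjusted p under 0.05, 9 were higher (20.5%, against 6.64% of all genes) and 0 lower (against 3.42%). After the median shift such a share was not particular to chaperones, since it was 29.0% for cytosolic ribosomal proteins (9 of 31) and 70.0% for hepatocyte markers (7 of 10). The medians of these lists fell from 0.10 and 0.17 to 0.02 each after quantile normalization, where the shares were not counted. The median over the 44 was 0.08 with 36 above 0, and 0.05 after quantile normalization. As deposited that median was -0.08 against -0.14 for all genes. In the probe sets used, differences were largest in Hspa1b, Hspa1a, Bag3, Dnajb4, Dnaja1, Dnaja4 and Chordc1. The other tested members were at most 0.32, but their further probe sets ran from -0.21 (Sugt1) to 0.52 (Hspb8). On 0.05% quercetin the list medians were 0.57 for HSP70 and HSP110, 0.30 for HSP40, 0.31 for HSP90 and 0.30 for small heat shock proteins. They were -0.0015 for HSP70 exchange factors and 0.03 for heat shock factors there, a list whose 3 tested genes were Hsf2, Hsf4 and Hsbp1. None of the 44 had high and low arrays apart in each of the 3 diets, beside 0.116% of all genes that were higher in that way. The tested genes listed as small heat shock proteins, beside Hspb1, were between -0.24 (Hspb11, at 0.0020 with a replicate block) and 0.32 (Hspb8). Of the heat shock factors, Hsf2 differed by 0.30 ± 0.14, but by -0.34 with a replicate block and by 0.09 in its other probe set. Hsf1 was not among the tested genes.

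**Figure D3:**
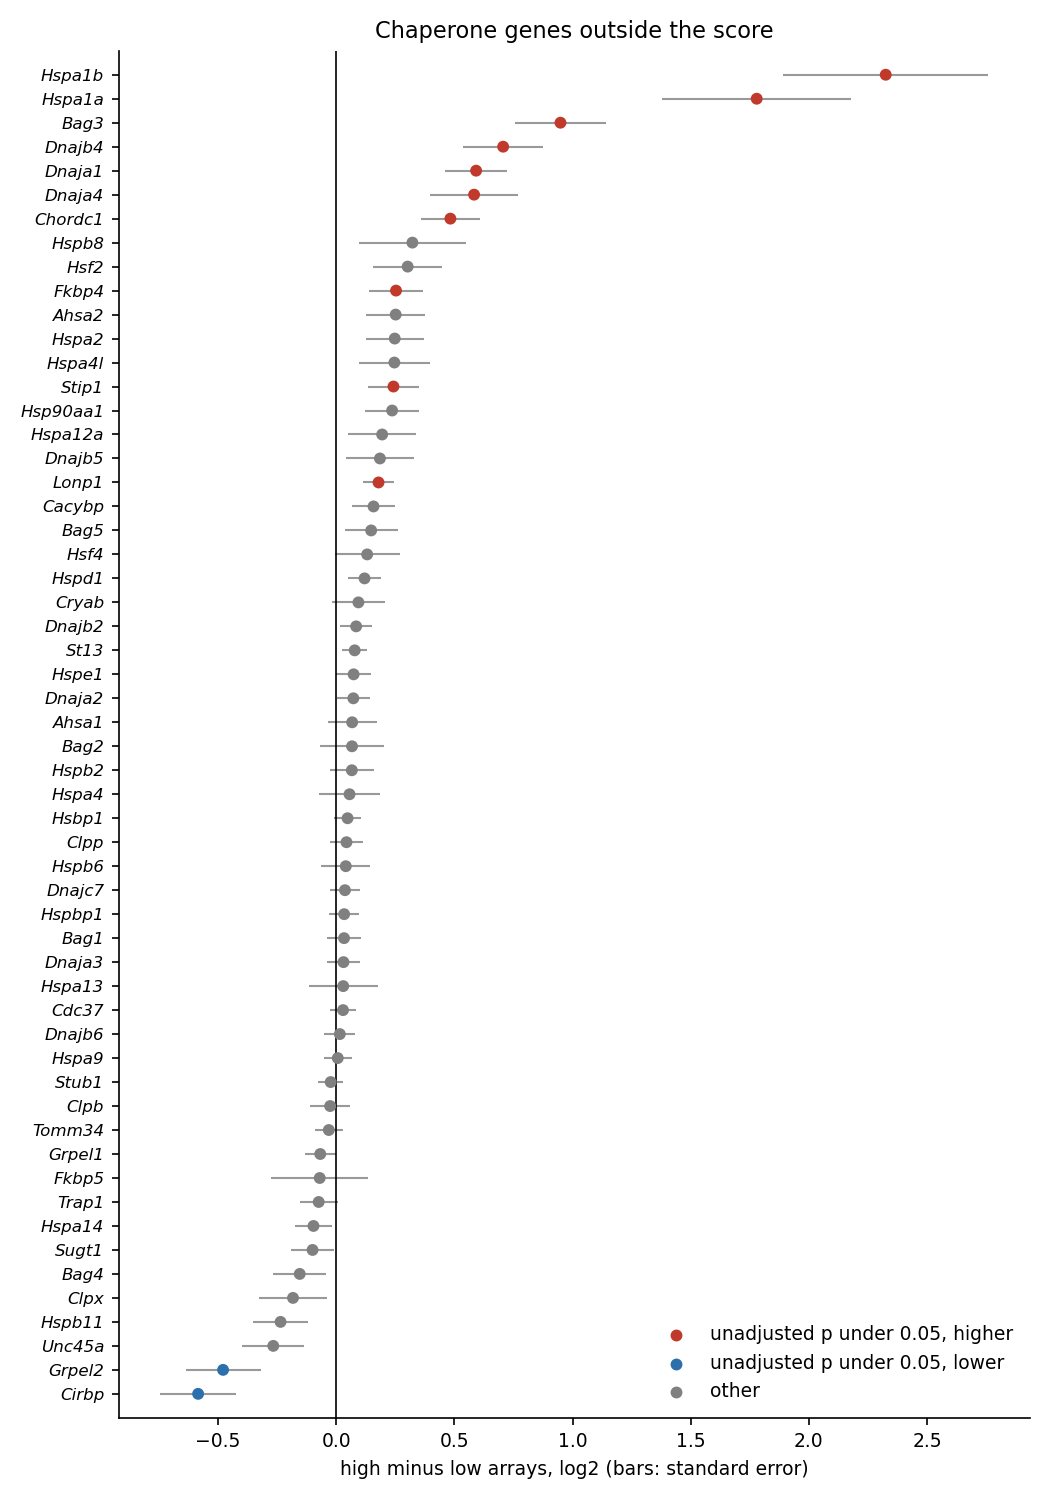
High minus low difference, in log2, of every tested gene of the cytosolic, mitochondrial and cold-inducible lists outside the score, TRiC and prefoldin aside, with the standard error as a bar; red and blue mark an unadjusted p under 0.05, higher and lower. Hspa1b and Hspa1a stand at 2.33 and 1.78, Bag3 at 0.95, most genes near 0, and Grpel2 and Cirbp at -0.48 and -0.58.

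The medians of the TRiC and mitochondrial chaperone lists were near 0. The subunits of the TRiC chaperonin and of prefoldin, which fold actin and tubulin, had a median of 0.03 over 13 genes, and none had an unadjusted p under 0.05. Mitochondrial chaperones had a median of 0.01 over 11 genes. Among them Grpel2, a nucleotide exchange factor of mitochondrial HSP70, was lower by -0.48 ± 0.16 (adjusted p 0.323), and Lonp1, the matrix protease, was higher by 0.18 ± 0.07 (adjusted p 0.367). A further Clpx probe set gave 0.99 where the one used gave -0.18. Further probe sets of Clpb (0.12 against -0.03) and Clpp (-0.03 against 0.04) also reversed. Those of Hspa9 lay between -0.08 and 0.10, and those of Hspe1, Dnaja3, Grpel2 and Trap1 kept direction. Cirbp, an RNA-binding protein that is induced by mild cold and the only tested gene of its list, was opposite to the heat shock genes. It ran from 5.43 through 5.80 to 6.29 on high and from 5.80 through 6.39 to 7.10 on low arrays, apart on 0.05% quercetin only. The difference was -0.58 ± 0.16 (adjusted p 0.220), or -0.27 with a replicate block. It was -1.21 on 0.05% quercetin and -0.27 and -0.28 on the control and 1% diets (adjusted p of the change with diet 0.316).

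Further known HSF1 targets were above 0 for 14 of 15 tested genes, or 8 of 15 as deposited, with a median of 0.23 (0.07 as deposited). Over all genes the median was 0.02, or -0.14 as deposited. Beside Bag3 and Dnajb4, which this list shares, Dedd2, a death effector domain protein, differed by 0.30 ± 0.07, and Zfand2a, an arsenite-inducible partner of the proteasome, by 0.29 ± 0.11. Slc5a3, the inositol transporter, differed by 0.47 ± 0.16. The adjusted p of these 3 genes ranged from 0.164 to 0.375, and they were chosen after their values were seen, as were all genes named below from lists other than the chaperone lists. The 31 tested proteasome genes had a median of -0.03, with 9 above 0.

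Chaperones of the endoplasmic reticulum and genes of the unfolded protein response had a median of 0.11 over 26 genes (-0.05 as deposited). The median was 0.50 on 0.05% quercetin, -0.16 on control and -0.02 on 1%. Dnajb9, an HSP40 of the endoplasmic reticulum, ran from 11.29 through 11.68 to 12.16 on high and from 10.25 through 11.14 to 11.44 on low arrays. It differed by 0.71 ± 0.16 (adjusted p 0.156), and its groups were apart in 2 diets. Herpud1, a component of degradation from the endoplasmic reticulum, differed by 0.73 ± 0.18, or 0.25 with a replicate block. Ddit3, the stress transcription factor CHOP, differed by 0.63 ± 0.20, and by -0.016 with that block. Hspa5, the main HSP70 of this compartment, differed by 0.26 ± 0.14, with 0.74 on 0.05% quercetin and -0.15 on control.

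The 12 genes with the smallest p among the higher ones included only 2 chaperone genes, Hspa1b and Bag3. Uspl1, a SUMO isopeptidase, ran from 8.30 through 8.68 to 8.88 on high and from 7.47 through 8.05 to 8.38 on low arrays, apart in the control and 0.05% diets. Its difference was 0.65 ± 0.11, at 0.62, 0.79 and 0.55 in the control, 0.05% and 1% diets. P4ha1, the catalytic subunit of collagen prolyl 4-hydroxylase, ran from 6.54 through 7.52 to 7.93 on high and from 6.22 through 6.43 to 6.98 on low arrays. It was apart in each diet and differed by 0.92 ± 0.16, while its further probe set gave 0.43. Luc7l, a splicing factor of the U1 particle, was also apart in each diet at 0.44 ± 0.08 (adjusted p 0.118), or 0.21 with a replicate block. Ppat, which makes the committed step of purine synthesis, differed by 0.39 ± 0.07 (adjusted p 0.118).

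Of the rest of these 12, Banp, a nuclear matrix protein, differed by 0.79 ± 0.16 and Lonrf3, a RING finger protein, by 0.75 ± 0.16 (0.15 with a replicate block). Zbtb21, a zinc finger protein, differed by 0.67 ± 0.13, and by 0.50 and 0.25 in its other probe sets. Baz1a, a chromatin remodelling subunit, differed by 0.45 ± 0.09 and Cyp4v3, a fatty acid hydroxylase, by 0.33 ± 0.07. Orc4, of the origin recognition complex, differed by 0.31 ± 0.06 and was apart in each diet, but its other probe sets lay between -0.03 and 0.08. Adjusted p for these 6 ran from 0.125 to 0.156.

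Among the 12 genes with the smallest p on the lower side, Camk2g, the gamma subunit of calmodulin-dependent kinase II, ran from 5.73 through 5.92 to 6.29 on high and from 6.14 through 6.42 to 6.69 on low arrays, apart on 0.05% and 1% quercetin. Its difference was -0.45 ± 0.09 (adjusted p 0.125). Inhbe, a secreted activin subunit made by hepatocytes, differed by -0.86 ± 0.19 (adjusted p 0.156), and ran from 6.28 through 7.56 to 8.04 against 7.73 through 8.39 to 9.04. Mrnip, which binds the MRN repair complex, differed by -0.63 ± 0.12 and Dixdc1, a Wnt pathway protein, by -0.65 ± 0.14, although a further Dixdc1 probe set gave -0.08. Srsf5, a splicing factor, differed by -0.51 ± 0.12 and Ocln, the tight junction protein occludin, by -0.42 ± 0.10, with -0.17 in another Ocln probe set. The others, Armc5, Gm5817, Pigq, Stx4a, Ago4 and Dpy19l4, lay between -0.35 and -0.29, but 4 further Pigq probe sets lay between -0.13 and 0.0051. Armc5 alone among the 12 was apart in each diet.

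High and low arrays were apart in each of the 3 diets for 15 genes that were higher (0.116%) and 5 that were lower (0.0388%). Beside P4ha1, Luc7l and Orc4, the higher ones included B4galt5, a galactosyltransferase, at 0.60 ± 0.14, and Nfkb2, an NF-kappaB subunit, at 0.52 ± 0.12. They also included Tfr2, a hepatocyte iron sensor, at 0.20 ± 0.06, and Rpl4, a ribosomal protein, at 0.15 ± 0.05 (-0.016 as deposited). The lower ones were Armc5, Ankrd44, Fam117b, Hykk and 9930012K11Rik, among which Hykk, hydroxylysine kinase, had the largest difference at -0.68 ± 0.18.

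Lists of lipid metabolism lay below 0. Cholesterol synthesis genes were below 0 for 17 of 18 tested genes, in each of the 3 scalings for at least as many, with a median of -0.22. Their median was -0.73 on 0.05% quercetin, -0.11 on 1% and -0.0050 on control. Hsd17b7, a sterol ketoreductase, differed by -0.42 ± 0.13, Idi1, the isopentenyl diphosphate isomerase, by -0.54 ± 0.23, and Fdft1, squalene synthase, by -0.44 ± 0.19. At an unadjusted p under 0.05 these were the 3 of 18 that were lower (16.7%, against 3.42% of all genes). Genes of fatty acid and triglyceride synthesis had a median of -0.16 over 25 genes, with -0.57 on 0.05% quercetin and 0.17 on control. Among these Acacb, the mitochondrial acetyl-CoA carboxylase, differed by -0.75 ± 0.27, with 0.27 on control, -1.46 on 0.05% and -1.06 on 1% quercetin.

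Targets of PPARA and fatty acid oxidation genes were below 0 for 24 of 32, with a median of -0.13, at -0.25 on control, -0.26 on 0.05% and 0.24 on 1% quercetin. Cpt1a, which admits fatty acids to mitochondria, differed by -0.22 ± 0.08, and Cyp4a14, a fatty acid omega-hydroxylase, by -1.15 ± 0.52. Cyp4a14 ran from 8.20 to 12.53 on high and from 9.63 to 12.61 on low arrays, a spread far wider than its difference. With a replicate block the difference was -2.57 for Cyp4a14 and -0.10 for Cpt1a. Genes of gluconeogenesis and fasting had a median of 0.08 over 14 genes, with 5 higher at an unadjusted p under 0.05 (35.7%, against 6.64%). These 5 included G6pc, glucose-6-phosphatase, at 0.56 ± 0.24, Irs2, an insulin receptor substrate, at 0.64 ± 0.21, and Igfbp1, an IGF-binding protein, at 0.81 ± 0.27. With a replicate block the difference was 0.74 for Irs2 and 0.17 for Igfbp1. Igfbp1 is in the glucocorticoid list too, whose median was 0.08 over 18 genes.

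Clock genes went both ways. Dbp, a clock output factor of large daily amplitude, ran from 5.37 through 5.58 to 9.60 on high and from 5.78 through 7.90 to 8.93 on low arrays. The difference was -1.26 ± 0.55 (adjusted p 0.443), with -2.50 on 0.05% quercetin, -1.25 on 1% and -0.04 on control. Arntl, the clock activator BMAL1, differed by 0.41 ± 0.17, Cry1, a clock repressor, by 0.48 ± 0.18, Nfil3, a repressor that opposes Dbp, by 0.56 ± 0.21, and Per1 by 0.42 ± 0.17. Of 18 tested clock genes 5 were higher (27.8%) and 2 lower (11.1%) at an unadjusted p under 0.05, against 6.64% and 3.42% of all genes. With a replicate block the difference was -0.57 for Dbp, 0.27 for Arntl, 0.12 for Cry1, 0.57 for Nfil3 and 0.11 for Per1. The part of the hour of killing in these values was not tested.

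Immediate early genes, which respond within minutes to many stimuli, were above 0 for 16 of 16 tested genes after the median shift and quantile normalization and for 11 as deposited. Their median was 0.22, with 0.40 on control, 0.34 on 1% and -0.03 on 0.05% quercetin. Fos, a subunit of AP-1, ran from 6.09 through 7.88 to 11.11 on high and from 6.51 through 6.78 to 8.49 on low arrays and was not apart in any diet. Btg2, an antiproliferative gene, differed by 0.52 ± 0.20. Osgin1, an oxidative stress gene in the NRF2 list, differed by 0.75 ± 0.19 (adjusted p 0.173), while the 22 tested NRF2 targets had a median of 0.10. The metallothionein Mt1 varied from 7.12 to 13.67 on high and from 7.02 to 13.34 on low arrays, at -1.81 on control, 3.96 on 0.05% and -0.78 on 1% quercetin.

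Markers of cell types were set beside these values. All 18 arrays had hepatocyte markers at high level, with a mean log2 level of the list from 12.55 to 12.80 on high and from 12.24 to 12.68 on low arrays. Hepatocyte markers were above 0 for 10 of 10 genes, or 8 after quantile normalization and 6 as deposited, with a median of 0.17, 0.02 and 0.01 in the 3 scalings, and 7 of the 10 were higher at an unadjusted p under 0.05 (70.0%). Alb, albumin, differed by 0.26 ± 0.07 (adjusted p 0.220). Kupffer cell and macrophage markers had list means from 8.20 to 9.06 on high and from 8.21 to 8.89 on low arrays, and a median difference of 0.06 over 14 genes, with 0.41 on 0.05% and -0.39 on 1% quercetin. Neutrophil markers had list means from 5.54 to 7.41 and from 5.18 to 7.55, with 4 of 8 genes above 0. Endothelial markers were below 0 for 12 of 14 genes, with list means from 6.99 to 7.29 and from 7.12 to 7.35. The part of these cell types in the differences was not tested.

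The direction of lists with small differences depended on scaling, and chaperone lists were among them. As deposited, the median was -0.03 for HSP40, -0.05 for HSP90 and -0.10 for HSP70 exchange factors. It was -0.10 for small heat shock proteins and -0.03 for heat shock factors, against -0.14 for all genes. For HSP70 and HSP110 it stayed above 0, at 0.08. Cytosolic ribosomal proteins were above 0 for 30 of 31 genes after the median shift but for 2 of 31 as deposited, with a median of 0.10. Oxidative phosphorylation genes were above 0 for 40 of 52, for 9 after quantile normalization and for 1 as deposited. Acute phase genes, secreted by hepatocytes in inflammation, had a median of 0.16 over 25 genes, with 0.78 on 0.05%, -0.06 on control and -0.47 on 1% quercetin, and 0.06 and -0.01 after quantile normalization and as deposited.

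**Figure D4:**
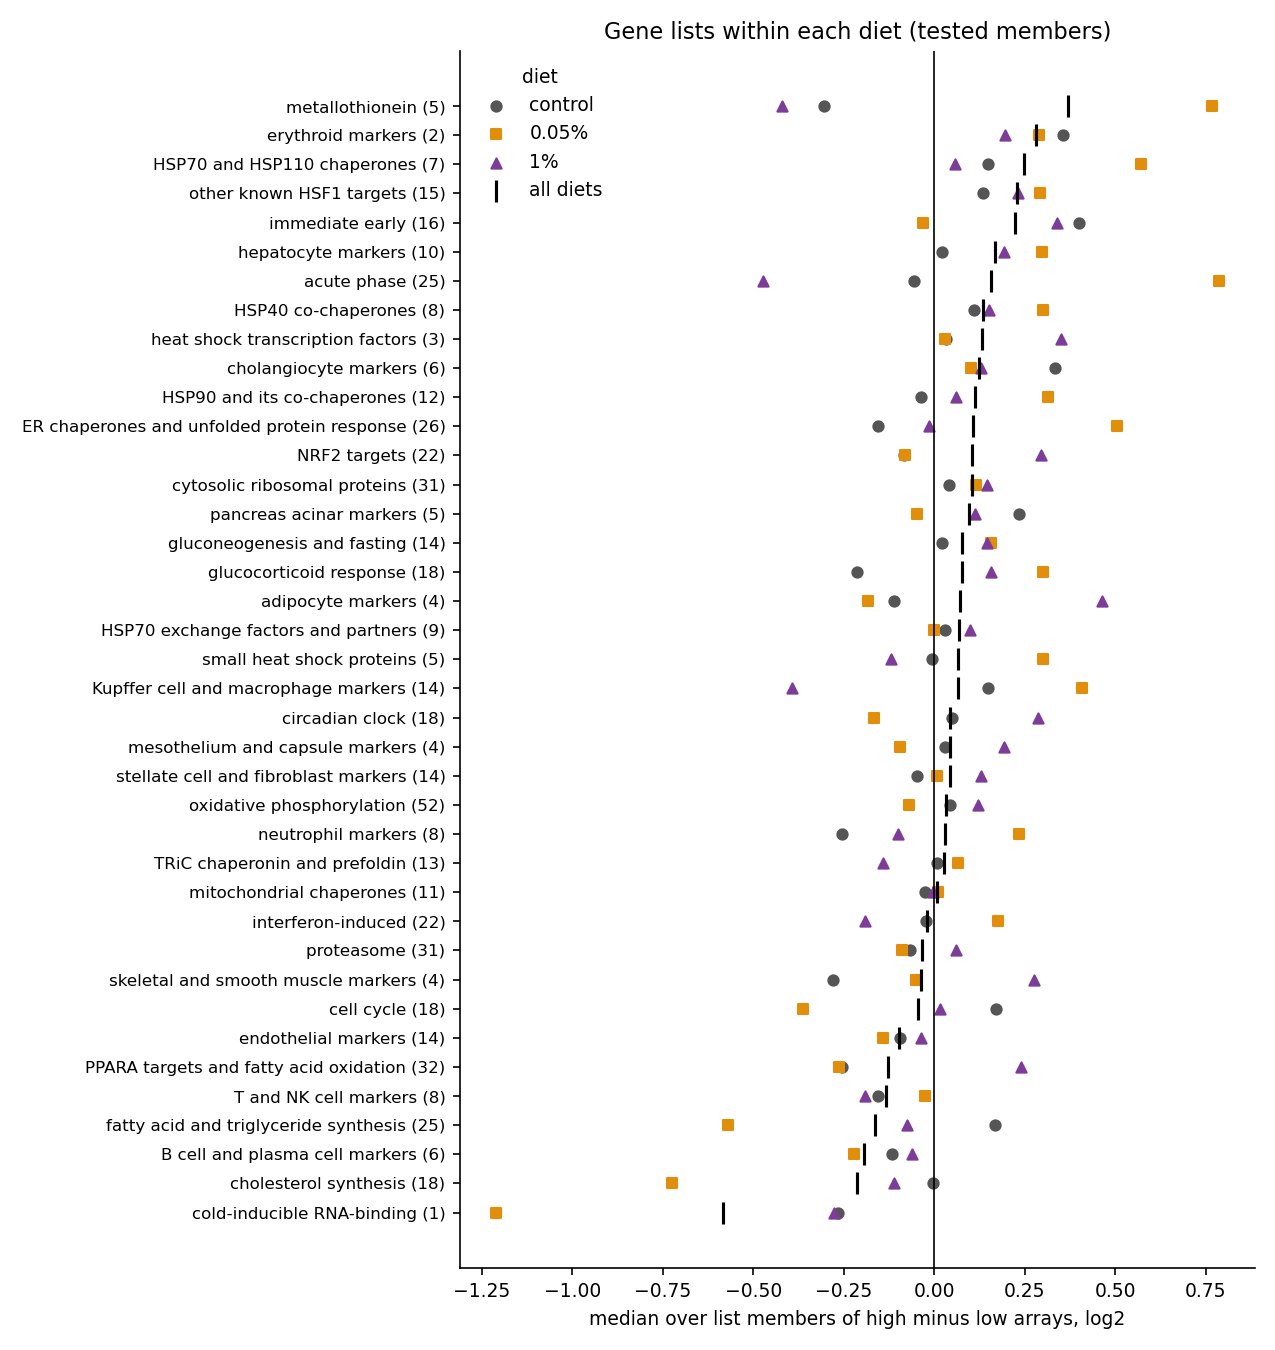
Median high minus low difference, in log2, over the tested members of each gene list (number in brackets) within the control, 0.05% and 1% diets and over all diets. In the lists of acute phase, endoplasmic reticulum, cholesterol synthesis and fatty acid synthesis genes, the square for 0.05% quercetin lies farther from 0 than the marks of the other diets, at 0.78, 0.50, -0.73 and -0.57.

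Within single diets, where 3 high arrays met 3 low ones, no gene passed by limma on control (0%, with 459 or 3.56% at an unadjusted p under 0.05) or on 0.05% quercetin (0%, with 1784 or 13.8%). On 1% quercetin 11 genes passed (0.0854%, with 1799 or 14.0% at an unadjusted p under 0.05), although its arrays were the closest across the division. Of these, 5 were higher on the high arrays: Lcor, a nuclear receptor corepressor, by 1.05 ± 0.16, Tle1, a transcriptional corepressor, by 1.14 ± 0.18, Zbtb21 by 1.16 ± 0.19, Rbm47, an RNA-binding protein, by 0.94 ± 0.16, and Zfp800 by 0.86 ± 0.15. The 6 that were lower included Alpl, alkaline phosphatase, by -0.98 ± 0.15, Cldn3, a claudin of tight junctions, by -0.91 ± 0.16, and Mppe1, by -1.09 ± 0.19. The others were Tnfaip8l1, Ttc30b and Tbc1d24, between -0.95 and -0.75. No chaperone gene was among the 11. The count was 0 without 1% replicate 3, 5 or 6 and when the division was made again after a median over all probe sets, and it was 75 without 1% replicate 4.

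Alpl was 5.75, 6.00 and 5.67 on the high and 6.72, 6.71 and 6.93 on the low arrays of the 1% diet, which were apart. On the 0.05% diet the order was the opposite, at 6.68, 6.72 and 6.71 on high and 6.51, 6.16 and 5.97 on low arrays. The test of whether the difference changed with diet called 0 of 12881 genes by limma, with 1553 at an unadjusted p under 0.05 (12.1%), and Alpl had the smallest adjusted p at 0.157. The 5 genes that followed, Gdap10, Ankrd36, Ankrd52, Mpp5 and Ccdc149, had adjusted p of 0.185 each. Gdap10, Ankrd52 and Mpp5 were lower on the high arrays of the control diet (-0.52, -0.54 and -0.62) and higher on those of the 1% diet (0.72, 0.80 and 0.80). Hspa1b and Bag3 had adjusted p of 0.740 and 0.827 in this test, and their differences were positive in all 3 diets.

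When the score itself replaced the division, with diet as a block, 45 of 12881 genes passed by limma (0.349%), of which 34 went up and 11 down with the score. They included 7 of the 56 tested genes of the chaperone lists without TRiC and prefoldin, Cirbp among them (12.5%). Expressed per 0.84 units of score, the distance between the high and low means, Bag3 rose by 0.95 ± 0.10 and Dnaja1 by 0.60 ± 0.07 (adjusted p 0.00048 and 0.00055). Hspa1b rose by 2.18 ± 0.28 (adjusted p 0.00067), and Chordc1, Dnajb4 and Hspa1a passed in the same direction. Cirbp went down, by -0.63 ± 0.10 (adjusted p 0.00439). Outside these lists, Uspl1, P4ha1, B4galt5, Luc7l, Herpud1, Dnajb9 and Osgin1 rose with the score, and Camk2g, Dixdc1, Srsf5 and Fzd6, a Wnt receptor, went down. The score is made of genes measured on the same arrays, so whatever the arrays share enters both sides of this relation. It is also the value that made the division, so these p-values are not separate support for the differences above. No term for the replicate number was in this fit.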

How the data were processed

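Liver RNA of 18 mice was measured on Affymetrix mouse arrays. The deposited values are linear intensity, 1 value per probe set and array; how the authors computed and scaled the signals is not given in the sources. Of 45101 probe sets, 34945 had exactly 1 gene symbol, 932 had several and 9160 had none, and only the first were used. Values were turned into log2(intensity + 16), each gene was represented by its probe set of highest mean, and each array was shifted so that the median of the tested genes was common. Genes with a mean above the 40th percentile (log2 4.69) were tested, 12885 with and 12881 without the 4 genes of the score. Models were fitted in limma 3.58.1 (lmFit, then eBayes; R 4.3.3) to diet and division (14 residual degrees of freedom), to the 6 cells of diet by division, and to diet and score, two-sided, at a Benjamini-Hochberg adjusted p under 0.05. Differences are high minus low, ± SE. The scripts were tested on simulated arrays in which set genes had been changed. The number of arrays limits precision, with a median SE of 0.10.

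The genes of the score, the gene lists and the division were chosen with earlier results of these data known. Named genes were the 12 with the smallest p in each direction, since fewer than 5 passed, every tested chaperone list member, and the 6 smallest p of the change with diet. Other names were chosen after their values were seen. Promoters came from RefSeq on GRCm38.p6 and were matched by symbol.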

Additional observations from a re-analysis of the deposited data

How the results depend on the processing

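The count of 0 called genes between high and low arrays became 6 with array weights, 45 with the score as a covariate, 3 with the 3′ minus 5′ control signal as a covariate and 2 at an adjusted p under 0.10. It became 1 with 1% replicates 2 and 5 left out, the arrays nearest the division, an alternative added after seeing the data. Leaving out each array gave 0 to 11, with 11 without control replicate 5, 2 without 0.05% replicate 2 and 1 without 1% replicate 2. On 1% quercetin 11 genes became 21 after quantile normalization, 82 as deposited, 0 with a median over all probe sets and the division made again, 5 with 1 added before the log2, 24 with a filter at the 60th percentile, 28 with trend and robust eBayes, 0 without replicates 2 and 5, and 0 to 75 leaving out each array. On 0.05% quercetin 0 became 31 as deposited, 2 with the division made again, 16 with the 60th percentile, 13 with trend and robust eBayes, and 0 to 29 leaving out each array, with 29 without control replicate 3 and 16 without 1% replicate 4. With control replicates 3 and 5 left out, also added after seeing the data, 29 passed on control, 64 on 0.05% and 20 on 1% quercetin, and 149 changed with diet; leaving out each array gave 0 to 2 on control and 0 to 1 for the change with diet. The causes were not tested. The 855 genes higher at an unadjusted p under 0.05 became 1814 without a filter, where more genes were tested and the share was not counted. The 855 became 457 with the array median as a covariate and 368 with the division made again, where the 440 lower ones became 775. Of 2624 values of 75 followed genes under the alternatives, 2575 kept direction and side of the threshold, 42 newly passed and 7 reversed: Cacybp, Hspd1 and Rpl4 as deposited (-0.0040, -0.042 and -0.016), and Fkbp4, Hspb11, Hsf2 and Ddit3 with the replicate number as a block (-0.072, 0.0020, -0.34 and -0.016). With this replicate block beside diet, 0 genes were called and the 855 became 560. Of the 75 genes in that fit, 25 were over 1.5 times smaller, 11 over 1.5 times larger and 4 reversed. Beside those given above, the smaller ones included Inhbe (-0.47), Grpel2 (-0.27), Lonp1 (0.095), Dedd2 (0.16) and Zfand2a (0.095). They also included Osgin1 (0.39), Btg2 (0.23) and Alb (0.11). The fit rests on the 2 replicate numbers that hold both high and low arrays. After the diet mean of each gene was subtracted, same-numbered arrays of different diets correlated between -0.47 and 0.33, so not every pair was over 0.1. Such pairs do not compare numbers 1 to 3 with numbers 4 to 6, and what the numbers stand for was not tested. The number of arrays and the dim probe sets limit what these comparisons can show.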
